A study of Mus musculus with 12 samples.

Results

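The genes described here are those of the small nucleolar, small Cajal body and small nuclear RNAs, taken as every gene whose symbol began with Snord, Snora, Scarna or Rnu followed by a digit. They were 124 of the 23183 genes listed, namely 74 Snord, 36 Snora, 9 Scarna and 5 Rnu genes. Male C57BL/6 mice were exposed once to 10 Gy cranial irradiation (IR) or to a sham procedure (Con), and their cortex and hippocampus were taken for RNA-seq 3 months later. Each of the 4 groups held 3 libraries, 12 in all, and each group was labelled by its tissue and by sham or irradiation. The labels do not say whether the cortex and hippocampus libraries with the same number came from the same mouse, and p-values therefore measure the spread between libraries. Values are FPKM as deposited, a unit of fragments divided by transcript length and by library depth.

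Small nucleolar RNAs (snoRNAs) guide enzymes to the bases of ribosomal RNA that are chemically modified. Box C/D snoRNAs (Snord) carry a C box and a D box, bind fibrillarin and direct ribose methylation, whereas box H/ACA snoRNAs (Snora) end in an ACA motif, bind dyskerin and direct pseudouridylation. Small Cajal body RNAs (Scarna) do the same for the small nuclear RNAs (snRNAs) of the spliceosome. Most of them in mammals are cut from introns of host genes, many of which encode ribosomal proteins, and the mature RNAs carry no poly(A) tail.

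In the GENCODE M21 annotation of GRCm38, 123 of the 124 genes were found by symbol, and 114 lay within a host gene on the same strand. The motifs of each class were searched as letters on the RNA's own strand. The letters TGATGA (C box) in the first 25 bases together with CTGA (D box) in the last 20 bases were found in 44 of 73 Snord genes (60.3%) and in 0 of 36 Snora genes, while ACA in the last 8 bases was found in 34 Snora genes (94.4%) and in 6 Snord genes (8.22%). The following 4 sequences are those listed above 0 in every cortex library, with Snord15a, the neighbour of Snord15b in the same host, and Snora81, the Snora gene above 0 in the most libraries. Capitals mark the C box, D box or ACA letters where the search found them.
Snord15b: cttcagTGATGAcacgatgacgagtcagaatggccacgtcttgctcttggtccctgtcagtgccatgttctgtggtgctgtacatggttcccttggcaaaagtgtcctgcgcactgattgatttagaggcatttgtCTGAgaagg
Snord15a: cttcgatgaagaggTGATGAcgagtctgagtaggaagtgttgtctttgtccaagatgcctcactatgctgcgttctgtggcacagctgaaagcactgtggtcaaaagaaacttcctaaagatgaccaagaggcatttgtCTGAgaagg
Snord22: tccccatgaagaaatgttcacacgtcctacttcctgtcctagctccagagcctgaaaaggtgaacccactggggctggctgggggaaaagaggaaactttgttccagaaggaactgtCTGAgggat
Snord17: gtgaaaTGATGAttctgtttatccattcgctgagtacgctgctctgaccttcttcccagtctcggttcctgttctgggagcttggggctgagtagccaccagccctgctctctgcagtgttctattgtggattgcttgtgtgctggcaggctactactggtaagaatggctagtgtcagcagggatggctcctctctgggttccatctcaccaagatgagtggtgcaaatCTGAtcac
Scarna13: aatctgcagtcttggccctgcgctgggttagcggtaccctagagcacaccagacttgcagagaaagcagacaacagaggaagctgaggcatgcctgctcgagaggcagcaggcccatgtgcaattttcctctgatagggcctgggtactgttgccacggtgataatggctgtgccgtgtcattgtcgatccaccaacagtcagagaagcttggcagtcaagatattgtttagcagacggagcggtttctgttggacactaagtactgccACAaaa
Snora81: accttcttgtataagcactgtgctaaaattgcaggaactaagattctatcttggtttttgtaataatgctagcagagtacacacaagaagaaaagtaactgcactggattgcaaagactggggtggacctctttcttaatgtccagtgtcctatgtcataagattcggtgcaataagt

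Snord15b (chr7:99479563-99479707, minus strand, 145 bases) and Snord15a (chr7:99482785-99482932, minus strand, 148 bases) both lie within Rps3, which encodes a protein of the small ribosomal subunit. Their sequences were identical at 107 of 162 aligned positions (66.0%). An exon of 1 of the 5 annotated Rps3 transcripts runs over Snord15b, so a fragment of that transcript could be assigned to it, and no Rps3 exon runs over Snord15a. Snord22 (chr19:8725866-8725991, plus strand, 126 bases) lies within the non-coding host Snhg1, of whose 18 transcripts 5 have an exon over it. Snord17 (chr2:144265979-144266216, minus strand, 238 bases) lies in introns of Snx5, a sorting nexin gene, and Scarna13 (chr12:105031075-105031349, minus strand, 275 bases), an H/ACA-type Cajal body RNA, lies in introns of the non-coding Snhg10. Snora81 (chr16:23110756-23110933, plus strand, 178 bases) lies within the translation factor gene Eif4a2.

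Most of these genes were listed at 0. Of their 1488 values, 1394 (93.7%) were 0, and 95 genes were at 0 in all 12 libraries. Above 0 in at least 1 library were 29 genes, comprising 7 of 74 Snord, 17 of 36 Snora, 2 of 9 Scarna and 3 of 5 Rnu genes. All 29 exceeded 1 FPKM in some library and were at 0 in another, compared with 142 of 13353 other genes (1.06%) with a transcript of over 300 bases. Of the other genes of similar length that exceeded 1 FPKM somewhere, 1 of 1 with transcripts of up to 150 bases and 2 of 6 (33.3%) with transcripts of over 150 and up to 300 bases were also at 0 in another library. The genes at 0 throughout included Rnu6, the catalytic snRNA of the spliceosome, Rnu7, which processes histone mRNA ends, Snord118, which is required for maturation of the large ribosomal subunit RNA, and Snord116, the cluster lost in Prader-Willi syndrome. Cells of all kinds use Rnu6 and Snord118, so a 0 for a gene of this group is given only as a listed value and not as absence, and no mean FPKM is given for a group that holds a 0.

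**Figure D1:**
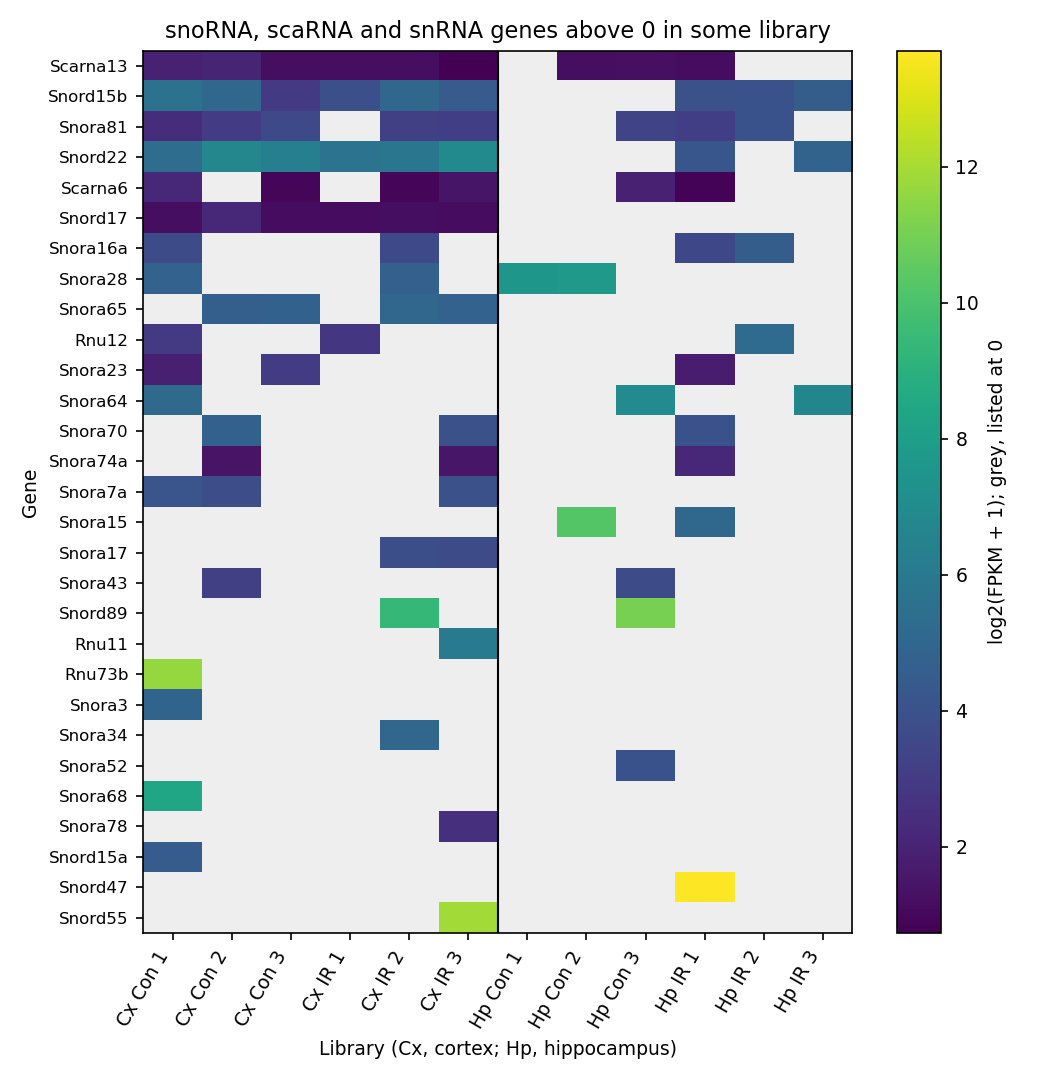
Heatmap of the 29 genes above 0 in at least 1 library (rows) over the 12 libraries (columns; Cx, cortex; Hp, hippocampus), coloured by log2(FPKM + 1), with grey for values listed at 0. No row is filled across all 12 libraries, Scarna13, Snord15b, Snord22 and Snord17 are filled in all 6 cortex libraries, and the brightest cells stand alone in their rows or nearly so.

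More of the genes were above 0 in the cortex than in the hippocampus. In the cortex 26 were above 0 somewhere, and in the hippocampus 17, with 12 above 0 only in the cortex, 3 only in the hippocampus and 14 in both. In the cortex, 16, 10 and 8 genes were above 0 in the Con libraries and 5, 12 and 14 in the IR libraries. In the hippocampus the numbers were 1, 3 and 7 in Con and 11, 4 and 3 in IR. Con and IR overlapped in both tissues. The mean was 11.3 ± 4.16 (SD, n = 3) in Con and 10.3 ± 4.73 in IR in the cortex, a difference of -1 (exact permutation test, two-sided, p = 0.9). In the hippocampus the means were 3.67 ± 3.06 in Con and 6 ± 4.36 in IR (n = 3), a difference of 2.33 (exact permutation test, two-sided, p = 0.6). With 3 against 3 libraries this test cannot give a p below 0.1. Without Con library 1 or IR library 1 of the cortex the difference turned to 1.33 or 1.67, and without IR library 1 of the hippocampus it turned to -0.167. For all genes together, 17093 to 17548 were above 0 per library. The fewest were in Con libraries 1 and 2 of the hippocampus, at 17191 and 17093.

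**Figure D2:**
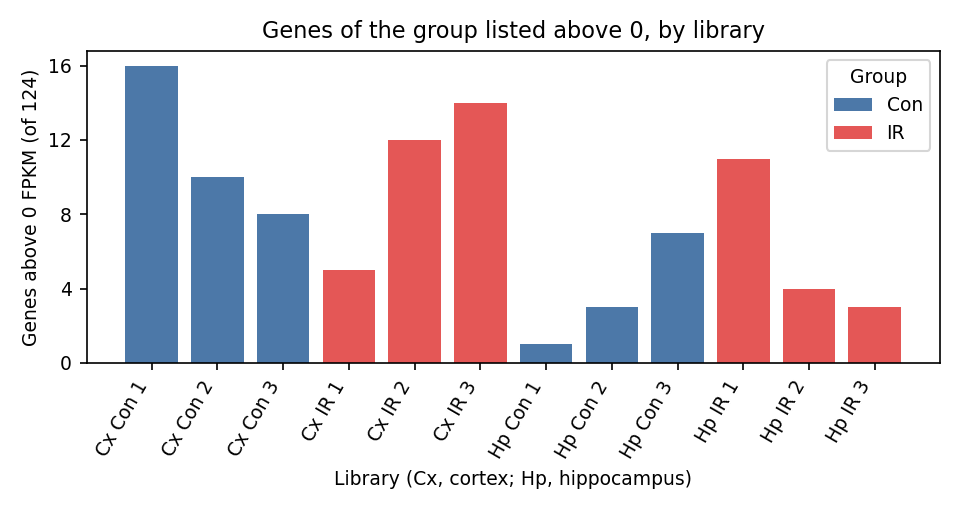
Number of the 124 genes listed above 0 FPKM in each library (bars; blue, Con; red, IR; Cx, cortex; Hp, hippocampus). The cortex libraries range from 5 to 16 and the hippocampus libraries from 1 to 11, and Con and IR overlap in both tissues.

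The share of genes listed above 0 was lowest among the short genes and highest above 150 bases, although the lengths overlapped, at 71 to 275 bases for genes above 0 and 62 to 414 bases for genes at 0. Of genes up to 80 bases long, 3 of 41 (7.32%) were above 0 somewhere, and of those over 80 and up to 100 bases 0 of 25. The share was 1 of 7 (14.3%) at over 100 and up to 120 bases, 18 of 41 (43.9%) at over 120 and up to 150 bases and 7 of 9 (77.8%) above 150 bases. The size of the values ran the other way, with non-zero values of 3190 to 13391 FPKM up to 80 bases, 4.76 to 1195 FPKM at over 120 and up to 150 bases and 0.665 to 37.0 FPKM above 150 bases. Across the 29 genes, length and the lowest non-zero value had a Spearman's rho of -0.819 (Pearson's r of -0.824 with log10 FPKM), a description across genes that share libraries and a length-dependent unit. Among Snora genes alone, the median length was 137 bases for the 17 above 0 and 131 for the 19 at 0.

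**Figure D3:**
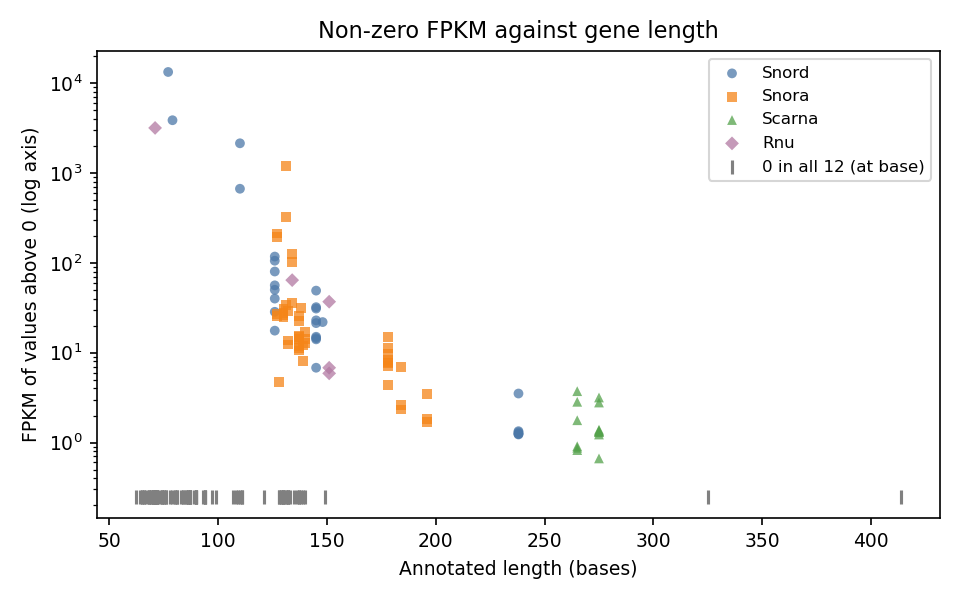
Each FPKM value above 0 (vertical, log axis) against the annotated length of its gene in bases (horizontal), coloured by class, with grey ticks at the base for genes at 0 in all 12 libraries. Values fall from 13391 FPKM at 77 bases to 3.73 FPKM and less from 238 bases upward, and most grey ticks lie below 100 bases.

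The unit bears on these sizes. In genes with transcripts of 1500 to 6000 bases, the steps between low values corresponded to about 17800000 to 19700000 fragments per library and to an effective length that was 205 to 286 bases shorter than the transcript. The 29 genes were 71 to 275 bases long. Snord17, Scarna6 and Scarna13, at 238, 265 and 275 bases, were longer than the deductions of all 6 cortex libraries (205 to 232 bases), and the other genes were at most 196 bases long and shorter than the deduction in every library. The 6.81 FPKM of Snord15b in Con library 3 of the cortex corresponded to 17.9 fragments if its full length was counted, or to 1 fragment if its effective length was 8.10 bases. The 13391 FPKM of Snord47 corresponded in the same way to 20343 fragments, or to 1 fragment at 0.00379 bases. Which of the readings holds was not tested. Of the 65 values that were not the lowest of their gene, 18 lay within 1.3 times the lowest and 20 were over 3 times as high.

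In 4 of the 12 libraries the highest FPKM of all 23183 genes belonged to this group. It was Rnu73b at 3190 FPKM in Con library 1 of the cortex, Snord55 at 3886 in IR library 3 of the cortex, Snord89 at 2151 in Con library 3 of the hippocampus and Snord47 at 13391 in IR library 1 of the hippocampus. Genes of the group then made up to 3.68% of the summed FPKM of a library. Rnu73b, Snord55 and Snord47 were at 0 in the other 11 libraries, and Snord89 was above 0 in 1 other, IR library 2 of the cortex (670 FPKM). The sequences of Snord47 and Rnu73b are given because they are the shortest genes with any value and are among those with the highest ones, again with C and D box letters in capitals.
Snord47: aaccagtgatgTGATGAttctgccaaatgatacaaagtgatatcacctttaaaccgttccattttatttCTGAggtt
Rnu73b: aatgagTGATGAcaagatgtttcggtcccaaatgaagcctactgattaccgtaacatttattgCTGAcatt

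Snord47 (chr1:161038082-161038158, plus strand, 77 bases) lies within Gas5, a non-coding host of many snoRNAs. Rnu73b (chr3:86140618-86140688, minus strand, 71 bases) lies in the ribosomal protein gene Rps3a1. Rnu73b is annotated as a snoRNA despite its symbol, and both box motifs were found in it. No group had more than 1 library above 0 for Snord47, Snord55 or Rnu73b, and none of them passed the filter for the test of IR against Con.

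Between irradiated and sham mice, 1 gene of the group passed a test at an adjusted p under 0.05, Snord15b in the hippocampus. It was listed at 0 in each of the 3 hippocampus Con libraries and at 14.5, 15.1 and 22.9 FPKM in the 3 IR libraries. The IR values lay within the range of the cortex libraries, where Snord15b was at 49.2, 32.2 and 6.81 FPKM in Con and at 14.1, 31.0 and 21.4 FPKM in IR. The hippocampus difference had an adjusted p of 6.03e-05 in limma, and no fold is given against a group listed at 0. The Con values were all 0 and had no spread, so this p-value does not measure a spread between Con libraries. Snord15b was 1 of 3 genes of the group tested in the hippocampus, where 0.0285% of the 14043 genes tested passed at an adjusted p under 0.05. That share rested on 4 genes, and without Con library 3 of the hippocampus 880 of 13909 genes passed. Snord15b entered that test only through the IR libraries, because the filter asked for at least 0.5 FPKM in 3 libraries. Without any 1 of them it no longer passed the filter and was not tested.

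Several other measures stood beside the Snord15b values. Its host Rps3 was at 99.8 to 160 FPKM in the 12 libraries and differed between IR and Con in the hippocampus by a log2 difference of -0.25 ± 0.14 (SE; limma, adjusted p = 0.430). Snord15a, in the same host, was at 21.96 FPKM in Con library 1 of the cortex and at 0 in the other 11. The effective length deduction was 260, 286 and 207 bases in the 3 hippocampus Con libraries and 216, 237 and 216 bases in the IR libraries. Depth, read from the steps of low values, was lower in each of these Con libraries than in any of the IR libraries. Across the 12 libraries it was lowest in hippocampus Con library 1, at about 17800000 fragments. It was highest in hippocampus IR library 1, at about 19700000 fragments. The parts of the deduction and of depth in the Snord15b values were not tested. In the same 3 Con libraries, 1, 3 and 7 genes of the group were above 0. In bulk tissue, fewer cells of a type and less RNA per cell cannot be told apart.

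The difference of the irradiation effects between tissues did not pass for any gene of the group. Of 14577 genes tested for the interaction of irradiation and tissue, 12 (0.0823%) had an adjusted p under 0.05, and 0 of the 15 genes of the group tested did. Without Con library 3 of the hippocampus, the calls over all genes rose to 480 of 14528. At an unadjusted p under 0.05 there were 1500 of all 14577 genes and 1 of the 15 genes of the group. That 1 was Snord15b, with an unadjusted p of 0.000972 and an adjusted p of 0.20 (limma). The adjusted p was 0.0293 with a pseudocount of 0.1 and 0.00301 without Con library 3 of the cortex, and over all alternatives it ran up to 0.422. With the criterion of a 1.5-fold change and an unadjusted p under 0.05, Snord15b was the 1 gene of the group called, where 0.954% of all genes tested were.

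In the cortex, 0 of the 8 genes tested passed at an adjusted p under 0.05, compared with 0.725% of the 14065 genes tested, and 1 passed the criterion of a 1.5-fold change and an unadjusted p under 0.05, compared with 0.483%. Scarna13 was the gene that met the criterion. It was at 2.79, 3.17 and 1.32 FPKM in Con and at 1.33, 1.36 and 0.665 FPKM in IR, and Con library 3 fell among the IR libraries. Con averaged 2.43 ± 0.977 FPKM (SD, n = 3) and IR 1.12 ± 0.393 FPKM, a log2 difference of -0.67 ± 0.23 (SE) on the log2(FPKM + 1) scale with an unadjusted p of 0.0166 and an adjusted p of 0.25 (limma). Without Con library 1, Con library 2 or IR library 3 it no longer met the criterion, and 0 genes of the group did. Its host Snhg10 had a log2 difference of 0.03 ± 0.16 in the cortex (adjusted p = 0.954).

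**Figure D4:**
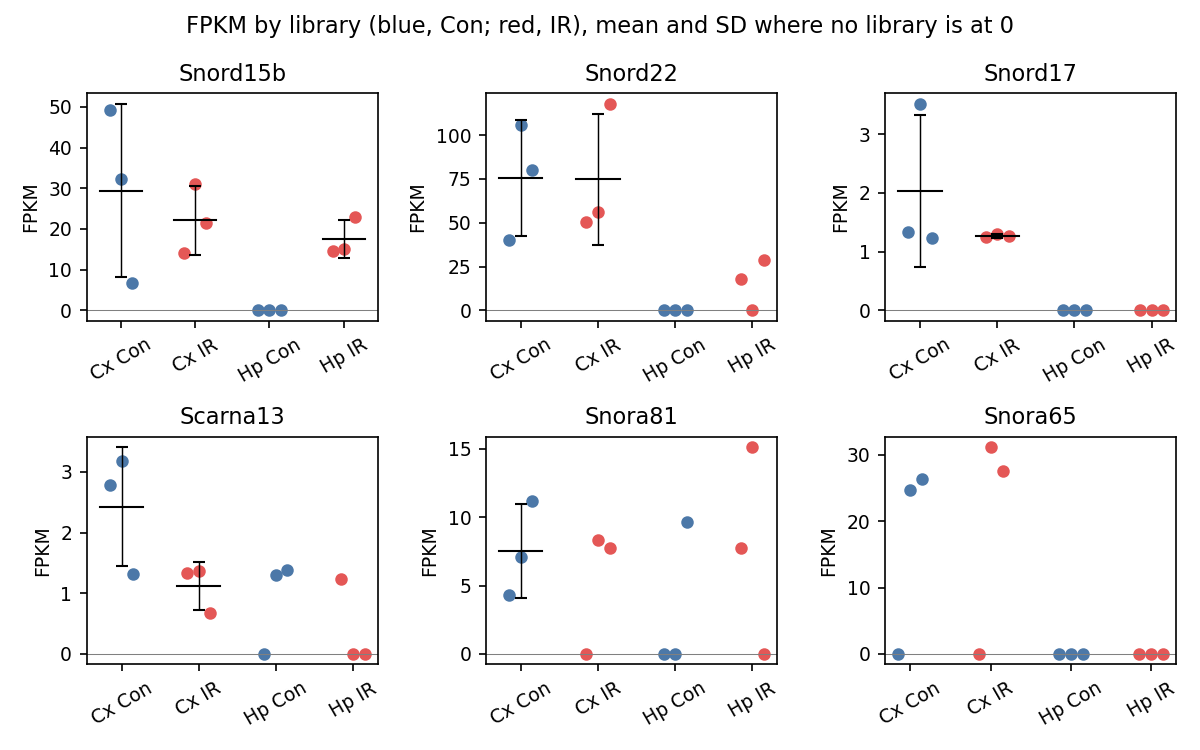
FPKM of 6 genes in every library (points; blue, Con; red, IR; Cx, cortex; Hp, hippocampus), with the group mean (line) and SD (bar) drawn only where no library of the group is at 0. Snord15b is at 0 in hippocampus Con and at 14.5 to 22.9 in hippocampus IR, Snord17 and Snora65 are at 0 in all 6 hippocampus libraries, and Con and IR overlap in the cortex for each gene.

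The other box C/D genes tested in the cortex overlapped between the groups. Snord22, whose RNA takes part in processing of the small ribosomal subunit RNA, was at 40.1, 106 and 80.3 FPKM in Con and at 50.3, 56.3 and 118 FPKM in IR (log2 difference -0.01 ± 0.54, adjusted p = 0.995, limma). Snord17 was at 1.34, 3.52 and 1.23 FPKM in Con and at 1.25, 1.30 and 1.26 FPKM in IR (log2 difference -0.34 ± 0.24, adjusted p = 0.584). Thus 5 of its 6 cortex values lay between 1.23 and 1.34 FPKM. Snord15b had a log2 difference of -0.09 ± 0.85 (adjusted p = 0.977). An interval of that width covers a change of more than 1.5-fold in either direction.

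Among H/ACA and Cajal body genes tested in the cortex, most groups held a 0. Snora81 was at 4.34, 7.07 and 11.2 FPKM in Con and at 0, 8.30 and 7.78 FPKM in IR (adjusted p = 0.778). Snora65, within the ribosomal protein gene Rpl12, was at 0, 24.8 and 26.4 FPKM in Con and at 0, 31.2 and 27.6 FPKM in IR (adjusted p = 0.988). Snora7a, within Rpl32, was at 17.0, 12.9 and 0 FPKM in Con and at 0, 0 and 14.3 FPKM in IR (adjusted p = 0.806). Scarna6, a Cajal body RNA within the autophagy gene Atg16l1, was at 3.73, 0 and 0.874 FPKM in Con and at 0, 0.909 and 1.77 FPKM in IR (adjusted p = 0.916). Values and zeros were thus mixed across both groups, and none of the 4 genes had an unadjusted p under 0.05 in limma.

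In the hippocampus, Scarna13 and Snora81 were also tested. Scarna13 was at 0, 1.30 and 1.39 FPKM in Con and at 1.23, 0 and 0 FPKM in IR (adjusted p = 0.642). Snora81 was at 0, 0 and 9.69 FPKM in Con and at 7.74, 15.1 and 0 FPKM in IR (adjusted p = 0.728, limma). The criterion of a 1.5-fold change and an unadjusted p under 0.05 was met by Snord15b alone of the 3 genes, where 0.527% of all genes tested met it. Snord15b entered the hippocampus test only through the IR libraries, against 3 Con values listed at 0. Snord22 was not tested there, with 0 in all 3 Con libraries and 17.6, 0 and 28.6 FPKM in IR.

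Between the regions in sham mice, 3 of the 7 genes tested were lower in the hippocampus and 0 were higher at an adjusted p under 0.05. The region comparison called 36.3% of the 14169 genes tested at that threshold, and 13.9% by the criterion of a 1.5-fold change and an unadjusted p under 0.05, which the same 3 genes met. They were Snord15b (adjusted p = 0.0101), Snord17 (adjusted p = 0.00155) and Snord22 (adjusted p = 2.61e-05, limma), each above 0 in all 3 cortex Con libraries and at 0 in all 3 hippocampus Con libraries. They passed the filter only through the cortex libraries, and the hippocampus Con values, all 0, added no spread to these p-values. The effective length deductions were 260, 286 and 207 bases in hippocampus Con and 232, 207 and 205 bases in cortex Con. The part of the deductions in the region calls was not tested. Without any 1 cortex Con library, 0 genes of the group passed, since none of the 3 was then tested in limma at the filter used. In the IR mice, Snord17 had cortex values of 1.25 to 1.30 FPKM and was at 0 in every hippocampus library, whereas Snord15b was above 0 in all 3 and Snord22 in 2 of the 3 hippocampus IR libraries. Of the hosts, Rps3 (log2 difference 0.00 ± 0.14, adjusted p = 0.984) and Snhg1 (0.07 ± 0.13, adjusted p = 0.725) did not pass the test, while Snx5 was lower in the hippocampus (-0.23 ± 0.07, adjusted p = 0.0360). The names of the deposited value columns end differently for cortex and hippocampus. What the endings stand for is not stated, and anything they mark cannot be told apart from tissue.

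Scarna13, Scarna6, Snora81 and Snora28 were tested between the regions as well and had adjusted p-values of 0.114 to 0.753. Snora28, within the translation factor gene Eif5, had its highest values in the hippocampus. It was at 194 and 213 FPKM in Con libraries 1 and 2 of the hippocampus, at 27.2 FPKM in Con library 1 and 25.4 FPKM in IR library 2 of the cortex, and at 0 in the other 8. Snora15, within the chaperonin gene Cct6a, was at 1195 FPKM in Con library 2 and at 33.9 FPKM in IR library 1 of the hippocampus. The highest values of both genes fell in the libraries with the longest deductions, 260 and 286 bases, and the part of the deduction in them was not tested.

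The remaining genes were above 0 in 1 to 4 libraries. Snora16a, within Snhg12, was at 11.999 FPKM in Con library 1 and 11.3 FPKM in IR library 2 of the cortex, and at 10.6 and 22.5 FPKM in IR libraries 1 and 2 of the hippocampus. Snora64, within Rps2, was at 35.9 FPKM in Con library 1 of the cortex and at 127 and 103 FPKM in Con library 3 and IR library 3 of the hippocampus. Snora70, within Rpl10, was at 25.8, 14.3 and 14.95 FPKM in Con library 2 and IR library 3 of the cortex and IR library 1 of the hippocampus. Each was spread over Con and IR libraries or tissues without filling a group.

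In those same 3 libraries as Snora70, Snora74a was at 1.68, 1.83 and 3.50 FPKM. Snora23, within the nuclear import gene Ipo7, was at 2.62 and 6.95 FPKM in Con libraries 1 and 3 of the cortex and at 2.33 FPKM in IR library 1 of the hippocampus. Snora43 was at 8.14 FPKM in Con library 2 of the cortex and 12.1 FPKM in Con library 3 of the hippocampus, while its neighbour Snora17 was at 13.7 and 12.3 FPKM in IR libraries 2 and 3 of the cortex. Snora3 (29.1 FPKM) and Snora68 (323 FPKM) were above 0 only in Con library 1 of the cortex, Snora34 (31.2 FPKM) only in IR library 2 and Snora78 (4.76 FPKM) only in IR library 3 of the cortex. Snora52 (15.2 FPKM) was above 0 only in Con library 3 of the hippocampus.

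Of the snRNA genes, those of the minor spliceosome had values. Rnu12 was at 6.81 FPKM in Con library 1 and 5.90 FPKM in IR library 1 of the cortex and at 37.0 FPKM in IR library 2 of the hippocampus. Rnu11 was at 64.4 FPKM in IR library 3 of the cortex and at 0 in the other 11. Both stand as genes of their own with no host on the same strand.

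Genes for the proteins that bind, assemble and transcribe these RNAs, and the genes named as snoRNA hosts, did not pass the test in either tissue. Of 98 genes in the 8 lists tested, none in either tissue had an adjusted p under 0.05 (limma, a count of 0 of 98), while 7 (7.14%) and 15 (15.3%) had an unadjusted p under 0.05, compared with 14.1% and 13.9% of all genes tested. In the hippocampus the median log2 difference was -0.13 for the 4 box C/D core proteins, -0.25 for the 4 box H/ACA core proteins, -0.22 for the 9 LSm proteins and -0.16 for the 22 Sm and U snRNP proteins, beside -0.01 for all genes. For snRNA transcription, processing and export it was 0.07 (22 genes), for snoRNP assembly 0.01 (11 genes) and for the Cajal body 0.00 (10 genes). In the cortex, the medians of the 8 lists lay between -0.05 and 0.07, beside 0.00 for all genes.

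Lsm8, a subunit of the ring that holds the end of the U6 snRNA, was the 1 gene of the lists to meet the criterion of a 1.5-fold change and an unadjusted p under 0.05, in the hippocampus, where 0.527% of all genes tested met it. Con averaged 35.9 ± 7.35 FPKM (SD, n = 3) and IR 22.4 ± 2.95 FPKM, a log2 difference of -0.64 ± 0.15 (SE; adjusted p = 0.240, limma). Lsm5, of the same ring, had a larger difference with a wider error, at 12.6 ± 5.13 FPKM in Con and 7.38 ± 3.43 FPKM in IR (log2 difference -0.72 ± 0.43, adjusted p = 0.473). Gar1, an H/ACA core protein, was at 14.0 ± 5.11 and 9.47 ± 1.84 FPKM (log2 difference -0.47 ± 0.26, adjusted p = 0.437). Dkc1, the pseudouridine synthase of the H/ACA particle, was at 10.7 ± 1.20 and 8.44 ± 0.661 FPKM (log2 difference -0.31 ± 0.10, adjusted p = 0.286). Nop58, a box C/D core protein, was at 16.6 ± 0.994 and 13.6 ± 1.26 FPKM (log2 difference -0.27 ± 0.08, adjusted p = 0.278). Other genes of the lists had higher means in IR, among them Ints3, an Integrator subunit, at 19.3 ± 1.09 and 23.7 ± 1.46 FPKM (log2 difference 0.29 ± 0.07, adjusted p = 0.247), and Snapc2, of the complex that starts snRNA transcription, at 11.2 ± 0.532 and 13.4 ± 0.569 FPKM (log2 difference 0.23 ± 0.07, adjusted p = 0.261). In the cortex, Lsm11, which acts with the U7 snRNA, had the lowest adjusted p of the genes named from the lists, at 4.87 ± 0.179 FPKM in Con and 6.32 ± 0.413 FPKM in IR (log2 difference 0.32 ± 0.07, adjusted p = 0.101).

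Host genes did not pass the test either. Of the 16 genes named as snoRNA hosts (Gas5 and the Snhg genes), 0 had an adjusted p under 0.05 in either tissue, 2 were higher in IR in the hippocampus and the median log2 difference there was -0.20. Snhg20 was at 34.0 ± 8.76 FPKM in Con and 23.4 ± 2.00 FPKM in IR (log2 difference -0.49 ± 0.18, adjusted p = 0.319), and Snhg5 at 8.86 ± 1.02 and 6.23 ± 1.34 FPKM (log2 difference -0.46 ± 0.14, adjusted p = 0.278, limma). Snhg9 had the largest difference of the hosts there, -0.73 ± 1.26, with the widest error (adjusted p = 0.817). Of the 24 annotated hosts of genes above 0, 22 were tested and 0 passed between IR and Con in either tissue. Hosts of the genes above 0 had a median level of 123 FPKM (23 genes of the group), compared with 27.7 FPKM for hosts of those at 0 (83 genes). A host was counted once for each of its genes. The ranges overlapped, at 6.27 to 367 FPKM and 0.572 to 877 FPKM.

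The tissue labels were checked with marker genes. Of 6 hippocampus markers, 5 were higher in all hippocampus than in all cortex libraries, and of 5 cortex markers, 4 were lower. Choroid plexus markers (Ttr, Kl and Kcnj13, all 3 listed) summed to 4.30 to 29.6 FPKM in cortex Con, 15.8 to 432 FPKM in cortex IR, 21.3 to 1036 FPKM in hippocampus Con and 22.7 to 1623 FPKM in hippocampus IR. Microglia markers (Cx3cr1, P2ry12 and Tmem119) summed to 36.3 to 39.1 FPKM in Con and 28.02 to 30.8 FPKM in IR in the hippocampus. In the cortex their sums overlapped, at 33.4 to 37.9 FPKM in Con and 26.1 to 33.7 FPKM in IR. Endothelial markers (Cldn5 and Pecam1) summed to 24.1 to 29.8 FPKM in Con and 33.1 to 35.9 FPKM in IR in the hippocampus, and to 26.7 to 35.2 and 37.7 to 44.8 FPKM in the cortex. Their part in the results above, the Snord15b values included, was not tested.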

How the data were processed

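Per-sample tables of FPKM for 23183 genes were used, 12 in all. According to the labels, the RNA was total RNA extracted with Trizol and the libraries were made with a directional kit, while the methods of the study describe a column kit, poly(A) selection and paired reads of 100 bases. The authors aligned the reads with TopHat to mm10 (submitters' processing notes) and deposited FPKM from Cufflinks, with geometric normalization. The annotation and the use of strand in counting are not given in the sources used here. FPKM are not counts, so no count test was run.

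Genes, lists and tests were chosen with earlier results of these data known. Genes that reached 0.5 FPKM in 3 or more libraries of a comparison were tested on log2(FPKM + 1) with limma 3.58.1 (R 4.3.3, trend and robust prior), with Benjamini-Hochberg adjustment over all genes tested. Calls were made by each of 2 rules, an adjusted p under 0.05 and a 1.5-fold change with an unadjusted p under 0.05. The latter follows the thresholds of the study, which does not say whether its p-value was adjusted. Tissues were fitted separately, and the interaction over all 12 libraries. Numbers of genes above 0 were compared by an exact permutation test over libraries, and the correlations with length were calculated with scipy 1.17.1. Fitted differences are on the log2(FPKM + 1) scale and understate changes of low genes. All genes of the group tested or above 1 FPKM in some library are named. Genes of a list could be named only if their adjusted p was under 0.05 or their difference was among the 3 largest of the list, and some of these are named as examples. Depth was read from the steps of low values in genes with transcripts of 1500 to 6000 bases, of which 81.6% to 86.3% were within 0.1 of a whole number of fragments. No pair of libraries held identical values. Lengths, hosts and sequences came from GENCODE M21 (GRCm38), which may differ from the annotation of the authors. A marker list used in the check of the tissues is not reported here. Scripts were tested on simulated data.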

Additional observations from a re-analysis of the deposited data

How the results depend on the processing

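The number of genes called at an adjusted p under 0.05 stayed at 0 in the cortex under every alternative tried. In the hippocampus it was 1, and it fell to 0 with at least 1 FPKM required in every library, a filter that leaves 0 genes of the group to test, and ranged from 0 to 1 when 1 library was left out. With a filter of 2 libraries, chosen after seeing the data, it was 1 without IR library 1 and 2 without IR library 2 (with Snord22) or IR library 3 (with Snora16a). Snord15b still entered those fits only through the IR libraries, against 3 values listed at 0, so they do not bear on how stable its call is. For the interaction it was 0, 1 with a pseudocount of 0.1, and 0 to 1 with 1 library left out. Between the regions it was 3, 0 with at least 1 FPKM in every library, and 0 to 4 with 1 library left out. By fold and unadjusted p, the cortex count of 1 became 0 with at least 1 FPKM in every library (3 genes left) and 0 to 1 with 1 library left out. The hippocampus count of 1 became 3 with no filter, 0 with at least 1 FPKM in every library, 0 to 2 with 1 library left out, and 2 with the filter of 2 libraries without IR library 2 or 3. The interaction count of 1 became 2 with no filter, 0 with at least 1 FPKM in every library, 2 with a pseudocount of 0.1, 3 with no trend or robust prior, and 1 to 2 with 1 library left out. The region count of 3 became 4 with no filter and 4 with no trend or robust prior. It was 0 with at least 1 FPKM in every library and 0 to 5 with 1 library left out. Fewer genes tested accounts for the zeros under the stricter filter.

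Libraries with the same number were not shown to be paired, as their deviations from the group means correlated at -0.39 to 0.11 between Con and IR and at -0.13 to 0.15 between tissues. With the replicate block, 0 genes of the group were called in the cortex, 1 in the hippocampus, 0 for the interaction and 2 rather than 3 between the regions, where Snord15b had an adjusted p of 0.0519 (limma). Over all genes the block gave 71 calls rather than 102 in the cortex and 1 rather than 4 in the hippocampus. Without Con library 3 of the hippocampus, calls over all genes there were 880, and those for the interaction 480.

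The difference in the number of genes above 0 ran from -2.83 to 1.67 in the cortex and from -0.167 to 4 in the hippocampus with 1 library left out. It was -1.33 and 2 when genes were counted from 1 FPKM. The sign of a log2 difference in the cortex turned only when a library was left out. With 1 library left out it ran from -0.77 to 0.35 for Scarna6 (2 turned), from -1.45 to 1.77 for Snora65 (3 turned), from -1.45 to 0.16 for Snora81 (1 turned), from -0.88 to 0.46 for Snord15b (3 turned) and from -0.40 to 0.28 for Snord22 (4 turned). These were fitted values with no call in either fit, and those of Scarna6, Snora65 and Snora81 were taken over groups that held values listed at 0.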

Other observations

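Other short non-coding RNAs outside the group differed in how often they were listed above 0. Rmrp, the RNA of RNase MRP, was above 0 in all 12 libraries, at 7.82 to 60.3 FPKM, and Rpph1, the RNA of RNase P, was at 9.43 to 39.5 FPKM. Their longest annotated transcripts have 281 and 319 bases. Vaultrc5, a vault RNA, was above 0 in 5 libraries at up to 1.16 FPKM, and Terc, the telomerase RNA, was at 0 in all 12. Of the other genes with a longest transcript of up to 150 bases, 1 of 11 was above 0 in some library, and of those over 150 and up to 300 bases 13 of 41 (31.7%). Symbols starting with Mir and a digit numbered 6, and each ended in hg, which marks a host gene rather than a microRNA.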
